A study of Mus musculus with 10 samples.

Results

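Expression of 7 receptor genes through which dopamine, corticotropin-releasing hormone (CRH), vasopressin, glucocorticoids and somatostatin act on pituitary cells was examined in the mouse intermediate lobe (IL), namely Drd2, Crhr1, Crhr2, Avpr1b, Nr3c1, Sstr2 and Sstr5. They were taken by gene symbol and Ensembl identifier, and all 7 were found among the 29527 genes of the expression table. Bulk RNA of dissected IL had been sequenced from 10 mice aged 2 to 3 months, each giving 1 library. There were 4 wild-type (WT) mice, 3 p27-/- mice and 3 p27-/-;Sox2+/- mice. p27-/- mice carry no functional copy of Cdkn1b, which encodes the cell cycle inhibitor P27, in any cell of the body. p27-/-;Sox2+/- mice lack P27 in the same way and have only 1 functional copy of Sox2, which encodes a transcription factor of pituitary stem cells and melanotrophs. The mice were of mixed genetic background and of both sexes, and no Sox2+/- group with intact P27 was analysed here.

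Melanotrophs, the endocrine cells that make up most of the IL, cleave proopiomelanocortin into melanocyte-stimulating hormone and release it under the control of dopamine fibres from the hypothalamus. Dopamine holds them back through the D2 receptor, which lowers cyclic AMP through inhibitory G proteins, as somatostatin receptors do. CRH raises cyclic AMP through stimulatory G proteins and vasopressin acts at its V1b receptor through phospholipase C and calcium. Corticotrophs, the proopiomelanocortin cells of the anterior lobe, are driven by CRH and vasopressin and restrained by glucocorticoids through the receptor encoded by Nr3c1. These receptors are therefore not exclusive to melanotrophs. In bulk tissue, fewer cells of a type and less RNA per cell cannot be told apart.

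Values were the deposited normalized log2 expression values, and a difference between genotypes is a log2 difference. Genes whose mean log2 value over the 10 mice reached 3.32, which is 10 in linear terms, were tested with limma. A gene was called changed at an adjusted p under 0.05, adjusted over the 17268 genes tested. The table holds no read counts, so the depth of each library is unknown, and precision rests on how many mice there were. The values of low genes were compressed. The median SD within genotypes was 0.0139 for genes with a mean log2 value of at most 0 and 0.153 for genes between 3.32 and 6. Small differences of the lowest receptors therefore cannot be read as small changes in RNA. As a check of the genotypes, Cdkn1b was lower than in WT by a log2 difference of -0.43 in p27-/- (adjusted p = 0.047) and of -0.72 in p27-/-;Sox2+/- samples (adjusted p = 0.00854). Cdkn1b reads thus remained in both mutants, and which exons they cover is not given by the table. Sox2 averaged 7.46 in WT, 7.28 in p27-/- and 6.996 in p27-/-;Sox2+/- samples, and its 3 p27-/-;Sox2+/- values were the lowest of the 10. It did not pass the test against WT (-0.46, adjusted p = 0.0811) or between the mutants (-0.29, adjusted p = 0.791). All 12 melanotroph markers were above the minimum, with a mean log2 value of 10.64 to 10.87 in WT, 10.86 to 10.98 in p27-/- and 10.77 to 10.86 in p27-/-;Sox2+/- samples. In p27-/- against WT 2 of them were called higher, Oacyl (0.77) and Pcsk2 (0.53), and 1 lower, Pcsk1 (-0.45). Of all tested genes, 3.16% were called higher and 4.62% lower in this comparison. In p27-/-;Sox2+/- against WT 2 of the 12 markers were called lower, Pcsk1 (-0.42) and Pam (-0.42), where 1.88% of all tested genes were. Pomc was called in no comparison. Markers of anterior lobe hormone cells, 9 of 10 with a value in the table (not Lhb), were present in all samples. Their mean log2 value ranged from 7.99 to 9.83 in WT, from 7.52 to 8.86 in p27-/- and from 7.68 to 8.41 in p27-/-;Sox2+/- samples, and the log2 of their summed linear level from 13.92 to 17.77, from 12.82 to 16.56 and from 13.48 to 14.85.

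In p27-/- compared with WT samples, Crhr1 fell while Drd2 and Nr3c1 did not pass the test, and in p27-/-;Sox2+/- samples none of the 4 tested receptors passed the test against WT. Of the 7 genes, 4 (Drd2, Crhr1, Avpr1b and Nr3c1) were above the minimum and 3 (Crhr2, Sstr2 and Sstr5) below it. In p27-/- against WT 1 of these 4 was called, Crhr1, which was lower, where 7.78% of all tested genes were called and 4.62% were called lower. In p27-/-;Sox2+/- against WT 0 of 4 were called by limma and 0 had an unadjusted p under 0.05, where 2.71% of all tested genes were called and 17.8% had such an unadjusted p. Between the mutants 1 of 4 was called, again Crhr1, which was higher in p27-/-;Sox2+/- samples, where 0.145% of all tested genes were called and 0.0811% were called higher. The last comparison uses the same p27-/- samples as the first, so the fall and the higher value of Crhr1 are not independent of each other.

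**Figure D1:**
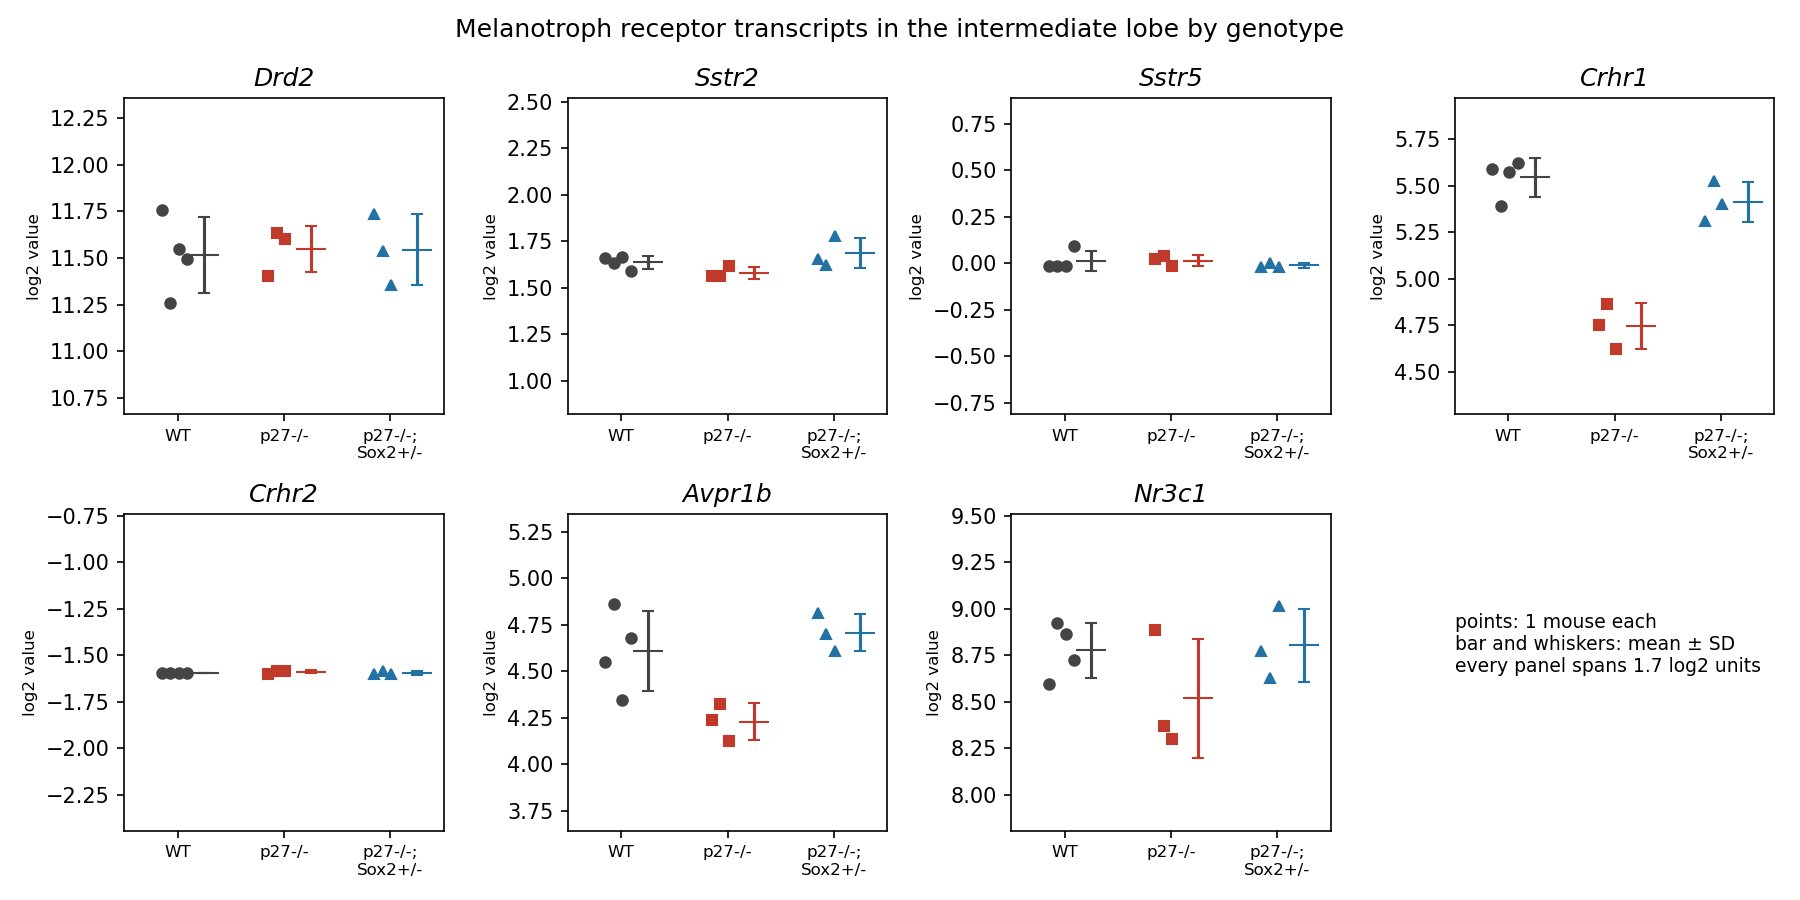
Log2 expression value (vertical axis, of the same span but a different centre in each panel) of the 7 receptor genes in each mouse, with 1 point per mouse, in 4 WT, 3 p27-/- and 3 p27-/-;Sox2+/- mice, and bars and whiskers for the group mean and SD. The 3 p27-/- points of Crhr1 lie between 4.62 and 4.87, under all WT and p27-/-;Sox2+/- points, whereas the 3 genotypes overlap for Drd2 and Nr3c1.

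Crhr1 (ENSMUSG00000018634) encodes the CRH receptor of corticotrophs, a stimulatory receptor, and lies on chromosome 11 of GRCm38.p6 from 104130463 to 104175523. Drd2 (ENSMUSG00000032259) encodes the dopamine D2 receptor, the main brake on melanotrophs, and lies on chromosome 9 from 49340360 to 49408177. The 250 bases upstream of the RefSeq start of these genes are shown. Crhr1 is the receptor with the lower value in p27-/- samples, Drd2 is the receptor with the highest level, and both have a GC-rich start. They span chr11:104132531-104132780 and chr9:49340153-49340402 on the plus strand of GRCm38.p6, from RefSeq. The set of upstream sequences used covered 4 of the 7 genes. The start used is that of 1 transcript and lies within the gene's locus. Capitals mark a GC box, GGGCGG or its reverse complement.
Crhr1: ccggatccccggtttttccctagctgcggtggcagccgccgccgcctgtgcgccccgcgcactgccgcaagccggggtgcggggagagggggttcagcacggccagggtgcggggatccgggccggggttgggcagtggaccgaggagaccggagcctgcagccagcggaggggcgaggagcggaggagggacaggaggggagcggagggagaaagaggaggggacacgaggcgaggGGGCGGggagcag
Drd2: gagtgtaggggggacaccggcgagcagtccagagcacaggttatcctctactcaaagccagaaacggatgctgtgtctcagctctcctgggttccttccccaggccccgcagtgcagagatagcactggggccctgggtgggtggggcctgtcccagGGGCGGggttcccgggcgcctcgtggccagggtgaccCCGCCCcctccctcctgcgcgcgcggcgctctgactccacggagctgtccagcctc
The Crhr1 stretch is 74.8% G or C with 25 CpG sites, a GC content above that of 95.8% of 32851 promoters of the same length, whose median is 52.4%. The Drd2 stretch is 68.8% G or C with 15 CpG sites, above 89.02% of them. A GC box was found on either strand 1 time in the Crhr1 and 2 times in the Drd2 stretch, and in 32.7% of all promoters. On both strands, 0 matches were found in either stretch for 6 other motifs. These were the cyclic AMP response element TGACGTCA (in 1.55% of all promoters), its short form TGACG, which lies within it (17.8%), and the E-box CANNTG (66.2%). The others were the SOX core ACAAT (27.7%), the TATA box TATAAA (12.4%) and AGAACA (16.1%), the core of the glucocorticoid response element.

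Among the inhibitory receptors, Drd2 had similar values in the 3 genotypes. Its log2 values were 11.76, 11.26, 11.55 and 11.50 in the WT samples, 11.41, 11.64 and 11.60 in the p27-/- samples, and 11.74, 11.54 and 11.36 in the p27-/-;Sox2+/- samples. The lowest and the highest of the 10 values were both from WT mice, and the groups overlapped throughout. WT samples averaged 11.52 ± 0.20 (SD, n = 4), p27-/- samples 11.55 ± 0.13 (SD, n = 3) and p27-/-;Sox2+/- samples 11.54 ± 0.19 (SD, n = 3). The 95% confidence interval of the difference was -0.22 to 0.29 for p27-/- against WT (adjusted p = 0.90), -0.23 to 0.29 for p27-/-;Sox2+/- against WT (adjusted p = 0.931) and -0.28 to 0.27 between the mutants (adjusted p = 0.999). These intervals bound the size of a difference in Drd2 at this number of mice and do not show that the levels were the same.

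The somatostatin receptors of the set were scarcely detected. Sstr2 (ENSMUSG00000047904, chromosome 11, 113619327 to 113626028) had log2 values of 1.66, 1.63, 1.66 and 1.59 in WT, 1.56, 1.56 and 1.62 in p27-/- and 1.66, 1.63 and 1.78 in p27-/-;Sox2+/- samples. The p27-/- and p27-/-;Sox2+/- samples did not overlap, but the highest p27-/- and the lowest p27-/-;Sox2+/- value were 1.62 and 1.63. An exact permutation test gave a two-sided p of 0.1, the smallest possible for 3 against 3 mice. Sstr5 (ENSMUSG00000050824, chromosome 17, 25489875 to 25497288) lay between -0.02 and 0.10 in WT, between -0.02 and 0.04 in p27-/- and between -0.02 and 0.003 in p27-/-;Sox2+/- samples, and its groups overlapped. The exact permutation test gave two-sided p-values of 0.114 for Sstr2 and 1 for Sstr5 in p27-/- against WT, and of 0.514 and 0.629 in p27-/-;Sox2+/- against WT, where 0.0571 is the smallest possible for 3 against 4 mice. The RefSeq locus of Sstr2 overlaps that of the protein-coding gene Slc39a11. Whether these genes share exons was not examined. The reads were counted without strand, so those of any shared exon could not be told apart by strand.

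Among the stimulatory receptors, Crhr1 had lower values in p27-/- samples. Its log2 values were 5.59, 5.39, 5.58 and 5.62 in WT, 4.75, 4.87 and 4.62 in p27-/- and 5.31, 5.53 and 5.40 in p27-/-;Sox2+/- samples. All 3 p27-/- values were under the lowest value of the other 7 mice, whereas WT and p27-/-;Sox2+/- samples overlapped. WT samples averaged 5.55 ± 0.11 (SD, n = 4) and p27-/- samples 4.75 ± 0.12 (SD, n = 3). The log2 difference was -0.80 (standard error 0.11, 95% interval -1.04 to -0.56, adjusted p = 0.00146), which is 0.575 times the WT level on the deposited scale. This call was kept in all 11 alternative settings in which the gene was tested, with adjusted p-values between 0.00103 and 0.0137, and with each of the 10 samples left out. The exact permutation test of the same difference gave a two-sided p of 0.0571, the smallest possible for 3 against 4 mice.

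In p27-/-;Sox2+/- samples the mean of Crhr1 was 5.41 ± 0.11 (SD, n = 3). The difference from WT was -0.13 (95% interval -0.37 to 0.11, adjusted p = 0.577), and the difference from p27-/- was 0.67 (standard error 0.12, 95% interval 0.41 to 0.92, adjusted p = 0.0491), a ratio of 1.59. The direction of the latter was the same in every setting, but the call was near the threshold and depended on single samples. The adjusted p was 0.0737 without WT replicate 4 and 0.155, 0.112 and 0.399 without p27-/- replicates 1, 2 and 3. It was 0.141, 0.253 and 0.183 without p27-/-;Sox2+/- replicates 1, 2 and 3, and with a sample left out the difference lay between 0.60 and 0.73. It was under 0.05 in 2 of 11 other settings, over which it ranged from 0.00275 with array weights to 0.184 with the replicate number as a block. An exact permutation test gave a two-sided p of 0.1, the smallest possible for 3 against 3 mice. The RefSeq loci of Crhr1 and Drd2 each overlap 1 long non-coding RNA gene, Gm35469 and Gm46111. Whether they share exons was not examined, and unstranded reads of any shared exon could not be told apart by strand.

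Avpr1b (ENSMUSG00000026432, chromosome 1, 131599114 to 131612000), the vasopressin V1b receptor that corticotrophs carry, had log2 values of 4.55, 4.86, 4.35 and 4.68 in WT, 4.24, 4.32 and 4.13 in p27-/- and 4.81, 4.70 and 4.61 in p27-/-;Sox2+/- samples. As for Crhr1, the 3 p27-/- values were the lowest of the 10, but the nearest WT value, 4.35, was close to the highest p27-/- value, 4.32. The differences did not pass the test. They were -0.38 in p27-/- against WT (standard error 0.12, 95% interval -0.64 to -0.12, adjusted p = 0.0698), 0.10 in p27-/-;Sox2+/- against WT (95% interval -0.16 to 0.36, adjusted p = 0.719) and 0.48 between the mutants (95% interval 0.20 to 0.76, adjusted p = 0.27). Without WT replicate 3, the lowest WT sample, the adjusted p against WT was 0.0315, and with array weights it was 0.0249 against WT and 0.0241 between the mutants. Crhr1 and Avpr1b both had an unadjusted p under 0.05 in p27-/- against WT and between the mutants, which held for 24.1% and 6.65% of all tested genes. The p27-/- samples were all below the WT samples for 2 of the 7 genes, Crhr1 and Avpr1b, where 10.3% of tested genes were. The p27-/-;Sox2+/- samples were all above the p27-/- samples for 3 of the 7, Crhr1, Avpr1b and Sstr2, where 7.51% of tested genes were. Among the 4 tested receptors, which these shares match, it was 2 in both comparisons. For 0 of the 7 were p27-/-;Sox2+/- and WT samples apart, where 15% of tested genes were.

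Crhr2 (ENSMUSG00000003476, chromosome 6, 55090048 to 55133016), the second CRH receptor, which binds the urocortins, was at the bottom of the table in every sample. Its log2 values lay between -1.60 and -1.58 in all 10 mice, where the lowest value of any gene was -1.89. The exact permutation test gave two-sided p-values of 0.286, 0.857 and 0.4 for the 3 comparisons in the order above. No change in Crhr2 was detectable at this level.

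Nr3c1 (ENSMUSG00000024431) encodes the glucocorticoid receptor, a hormone-activated transcription factor that represses Pomc in corticotrophs, and lies on chromosome 18 from 39410545 to 39519421. Its log2 values were 8.60, 8.92, 8.87 and 8.73 in WT, 8.89, 8.37 and 8.30 in p27-/- and 8.77, 8.63 and 9.01 in p27-/-;Sox2+/- samples. The lowest values were those of p27-/- replicates 2 and 3, whereas p27-/- replicate 1 lay within the WT range. The differences were -0.26 in p27-/- against WT (standard error 0.14, 95% interval -0.56 to 0.05, adjusted p = 0.291), 0.03 in p27-/-;Sox2+/- against WT (95% interval -0.28 to 0.33, adjusted p = 0.943) and 0.28 between the mutants (95% interval -0.04 to 0.61, adjusted p = 0.845). Nr3c1 had the widest spread of the tested receptors within p27-/- samples, with an SD of 0.32.

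**Figure D2:**
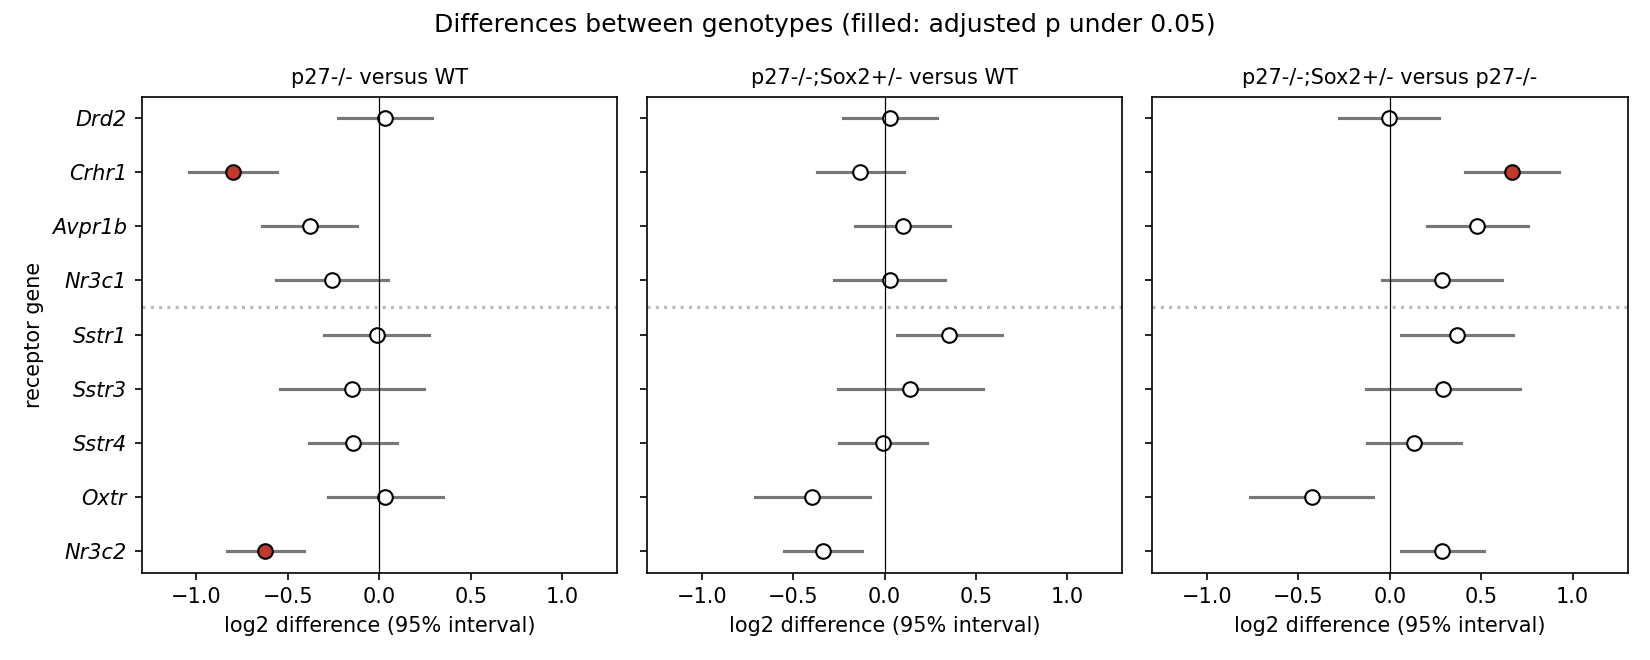
Log2 difference with its 95% interval (horizontal axis) of the 4 tested receptors and of the 5 tested related receptors in the 3 comparisons, from 1 limma fit of 10 mice, with filled points for an adjusted p under 0.05. Crhr1 and Nr3c2 are filled in p27-/- against WT at -0.80 and -0.62, no receptor is filled in p27-/-;Sox2+/- against WT, and Crhr1 is filled between the mutants at 0.67.

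The levels of the receptors were compared per length, as the mean log2 value in WT minus the log2 of the summed exon length in kilobases. Drd2 was the highest of 16 receptors of the dopamine, CRH, vasopressin, somatostatin and corticosteroid families, at 10.17 ± 0.20 (SD, n = 4). Nr3c1 followed among the 7 genes at 5.88 ± 0.15, then Crhr1 at 4.25 ± 0.11 and Avpr1b at 2.60 ± 0.22, with gaps larger than these SDs. Sstr2, Sstr5 and Crhr2, at 0.57, -1.42 and -3.95, were below the minimum. Of the somatostatin receptors the IL libraries held Sstr1 (6.27 ± 0.17 per kilobase), Sstr3 (4.26 ± 0.39) and Sstr4 (3.15 ± 0.19) rather than Sstr2 and Sstr5. Sstr3 and Crhr1 did not differ beyond their spread, nor did Nr3c1 and Nr3c2.

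Of 11 related receptors, 9 had a value in the table (not Avpr1a or Drd5) and 5 were above the minimum. Of these 5, 1 was called, lower in p27-/- against WT, where 4.62% of tested genes were called lower. It was the mineralocorticoid receptor gene Nr3c2, whose product binds corticosterone as well. WT samples averaged 8.57 ± 0.12 (SD, n = 4) for Nr3c2 and p27-/- samples 7.94 ± 0.11 (SD, n = 3), a difference of -0.62 (standard error 0.10, adjusted p = 0.00295). This call was kept with each sample left out. In p27-/-;Sox2+/- samples Nr3c2 averaged 8.23 ± 0.06 (SD, n = 3), with differences of -0.34 from WT (adjusted p = 0.0892) and 0.29 from p27-/- (adjusted p = 0.554) that did not pass. The dopamine receptors Drd1, Drd3 and Drd4 and the vasopressin receptor Avpr2 were below the minimum, and Sstr1, Sstr3, Sstr4 and the oxytocin receptor gene Oxtr passed in no comparison. Of 13 genes of ligands, binding protein and dopamine handling, 10 had a value in the table (not Crh, Ucn or Ucn3) and 5 were above the minimum. Of these 5, 1 was called, higher in p27-/- against WT, where 3.16% of tested genes were called higher. Ddc, the decarboxylase of dopamine and serotonin synthesis, rose, with a difference of 0.70 in p27-/- against WT (standard error 0.17, adjusted p = 0.0267). The call of Ddc was lost with 3 of the 10 samples left out, at adjusted p-values of 0.071 without WT replicate 4 and 0.115 and 0.0975 without p27-/- replicates 1 and 2. It was also lost in 3 of 11 other settings, with the replicate block (0.0591), the posterior lobe markers as a covariate (0.0963) and both samples highest in anterior lobe markers left out (0.103). Th, the rate-limiting enzyme of dopamine synthesis, was below the minimum, with log2 values between 2.06 and 2.27 in all samples.

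Downstream of the receptors, the list with the most called genes was that of the calcium branch. It holds phospholipase C enzymes, which generate inositol trisphosphate, the receptors that release calcium in response to it, and protein kinase C. Of 11 such genes, 10 were tested and 4 were called in p27-/- against WT, all lower, where 4.62% of tested genes were called lower. The median difference of the 10 was -0.33, against 0.01 for all tested genes. Itpr2 fell by 0.80 (adjusted p = 0.00149), Itpr1 by 0.70 (adjusted p = 0.00149), Plcb3 by 0.53 (adjusted p = 0.0192) and Plcb4 by 0.41 (adjusted p = 0.0184). The calls of Itpr1 and Itpr2 were kept with each sample left out, and those of Plcb3 and Plcb4 in 6 and 8 of 10 cases, with adjusted p-values of up to 0.071 and 0.0935. Both were kept in 10 of 12 other settings, and lost with the replicate block (0.0773 and 0.0598) and the posterior lobe covariate (0.0774 and 0.0673). In p27-/-;Sox2+/- against WT 1 of the 10 was called, Itpr2, at -0.51 (adjusted p = 0.0304), where 1.88% of tested genes were called lower, and this call was kept in 5 of 10 cases, with adjusted p-values of up to 0.114, and in 8 of 12 other settings, with adjusted p-values of up to 0.108. Between the mutants 0 of the 10 were called by limma and 4 had an unadjusted p under 0.05, where 0.145% and 6.65% of all tested genes were.

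**Figure D3:**
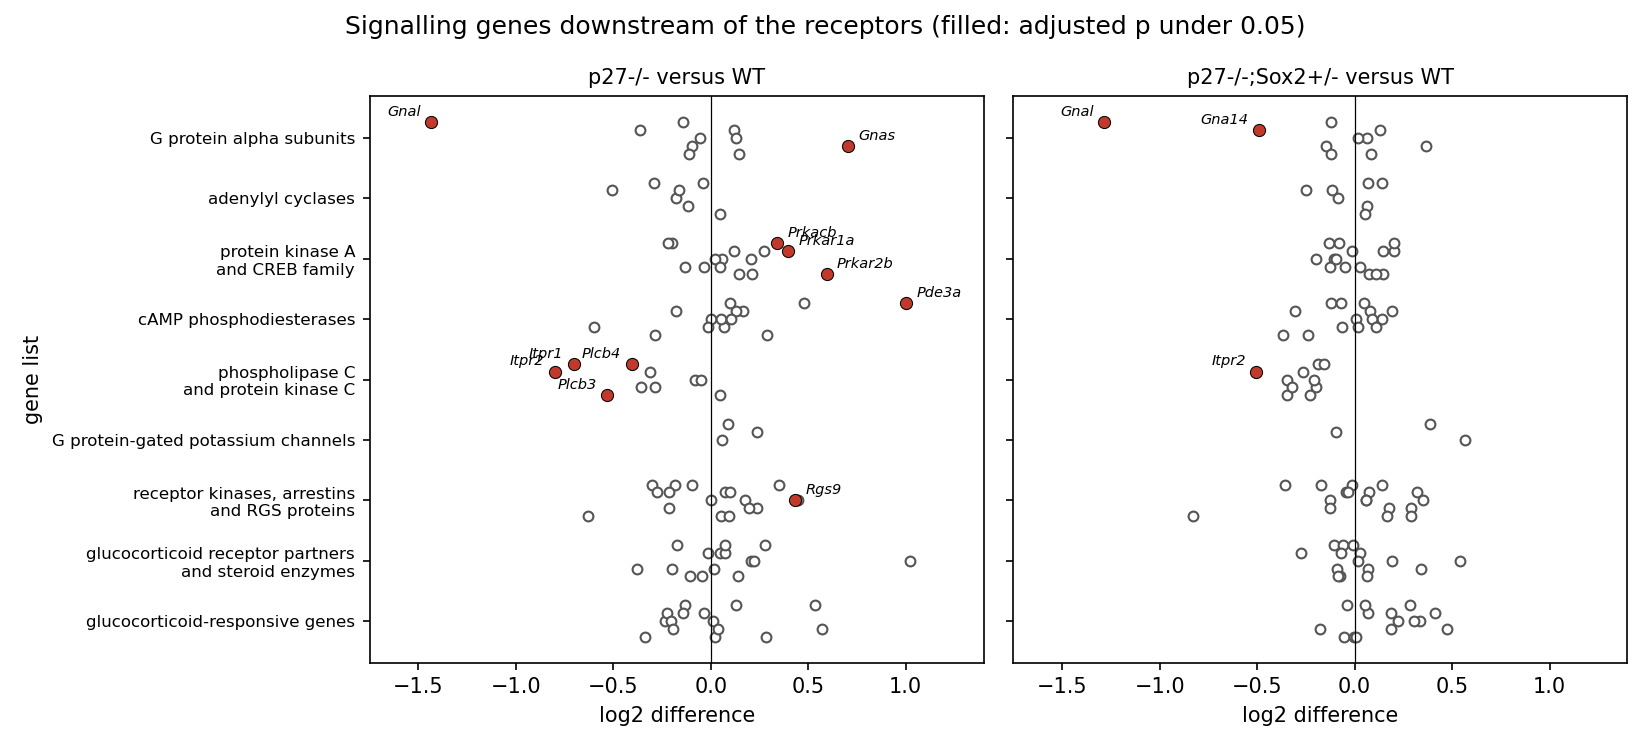
Log2 difference from WT (horizontal axis) of each tested gene of 9 lists of signalling genes (vertical axis, 1 list per line, points spread for visibility), for p27-/- and p27-/-;Sox2+/- samples, with filled points and names for an adjusted p under 0.05. In p27-/- samples 4 genes of the phospholipase C list are filled on the negative side and 3 of the protein kinase A list on the positive side, and in p27-/-;Sox2+/- samples Gnal, Gna14 and Itpr2 are filled, all on the negative side.

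On the cyclic AMP branch, which Drd2 and Crhr1 drive in opposite directions, the called genes were of several kinds. Of 10 G protein alpha subunits, Gnal, a stimulatory subunit, fell by 1.43 in p27-/- (adjusted p = 0.00184) and by 1.28 in p27-/-;Sox2+/- samples (adjusted p = 0.00729). WT samples averaged 10.02 ± 0.48 (SD, n = 4), and both calls were kept with each sample left out. Gnas, the ubiquitous stimulatory subunit, rose by 0.70 in p27-/- samples (adjusted p = 0.0467), and Gna14, which couples to phospholipase C, was lower by 0.49 in p27-/-;Sox2+/- samples (adjusted p = 0.0491). The calls of Gnas and Gna14 were kept in only 4 and 1 of 10 cases with a sample left out, with adjusted p-values of up to 0.193 and 0.218, and each in 4 of 12 other settings, with adjusted p-values of up to 0.153 and 0.161. None of 7 tested adenylyl cyclases was called by limma in the 3 comparisons, where 7.78%, 2.71% and 0.145% of all tested genes were, in turn. An unadjusted p under 0.05 was found for 1 in p27-/- against WT and 1 between the mutants, where 24.1% and 6.65% of all tested genes had one.

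Of 15 genes of protein kinase A and the CREB family, 3 were called in p27-/- against WT, all higher, where 3.16% of tested genes were called higher. These were the catalytic subunit gene Prkacb at 0.34 (adjusted p = 0.017) and the regulatory subunit genes Prkar2b at 0.59 (adjusted p = 0.0385) and Prkar1a at 0.40 (adjusted p = 0.0456). With a sample left out they were kept in 8, 2 and 3 of 10 cases, with adjusted p-values of up to 0.0724, 0.147 and 0.152. In the other settings they were kept in 9, 8 and 5 of 12, with adjusted p-values of up to 0.0978, 0.129 and 0.119. In p27-/- against WT and between the mutants 7.78% and 0.145% of all tested genes were called. Of 14 tested phosphodiesterases of cyclic AMP, 1 was called in both, Pde3a. WT samples averaged 7.92 ± 0.20 (SD, n = 4), p27-/- samples 8.92 ± 0.27 (SD, n = 3) and p27-/-;Sox2+/- samples 7.85 ± 0.14 (SD, n = 3). It rose by 1.00 in p27-/- against WT (adjusted p = 0.00144), kept with each sample left out, and was lower by 1.07 in p27-/-;Sox2+/- than in p27-/- samples (standard error 0.15, adjusted p = 0.0163), where 0.0637% of tested genes were called lower. The latter call was lost without p27-/- replicate 2 or 3 (adjusted p = 0.0585 and 0.117) and without p27-/-;Sox2+/- replicate 1, 2 or 3 (adjusted p = 0.087, 0.0958 and 0.056). Among 18 receptor kinases, arrestins and RGS proteins, which end G protein signals, 1 was called in p27-/- against WT. Of all tested genes 7.78% were called there, and 3.16% were called higher. The gene was Rgs9, at 0.43 (adjusted p = 0.0394). It was kept in 5 of 10 cases with a sample left out (up to 0.184) and in 5 of 12 other settings (up to 0.106). None of 3 tested G protein-gated potassium channels was called by limma in the 3 comparisons, where 7.78%, 2.71% and 0.145% of all tested genes were. Of these channels, 2 had an unadjusted p under 0.05 in p27-/-;Sox2+/- against WT and 3 between the mutants. Of all tested genes 17.8% and 6.65% did.

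On the glucocorticoid side, 0 of 15 partners of the glucocorticoid receptor and steroid enzymes and 0 of 15 glucocorticoid-responsive genes were called by limma in any comparison. An unadjusted p under 0.05 was found for 3 and 4 of them in p27-/- against WT, 1 and 3 in p27-/-;Sox2+/- against WT and 5 and 3 between the mutants. Over all tested genes, the shares called were 7.78%, 2.71% and 0.145%, and those with such an unadjusted p were 24.1%, 17.8% and 6.65%. For Fkbp5, a standard glucocorticoid target, WT samples averaged 7.72 ± 0.25 (SD, n = 4), p27-/- samples 7.50 ± 0.17 (SD, n = 3) and p27-/-;Sox2+/- samples 7.79 ± 0.09 (SD, n = 3).

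The receptors were set beside the markers of other cells in the same samples, since corticotrophs of the anterior lobe carry Crhr1, Avpr1b and Nr3c1. The list of corticotroph and general endocrine markers holds 7 genes, of which Crhr1 and Avpr1b are 2. Its mean log2 value was 8.59 to 8.86 in WT, 8.39 to 8.53 in p27-/- and 8.67 to 8.79 in p27-/-;Sox2+/- samples, lowest in the 3 p27-/- mice. Over the 5 markers other than these receptors (Chga, Chgb, Scg2, Gpc5 and Tnnt1) it was 9.96 to 10.36, 9.997 to 10.14 and 10.12 to 10.30, and the 3 p27-/- mice were no longer the lowest. The list also holds general endocrine markers, so the mean of these 5 cannot follow corticotrophs alone, and it joins genes that went opposite ways. Chga, Chgb and Scg2 averaged higher in p27-/- than in WT samples (12.33 against 12.31, 14.30 against 14.16 and 13.87 against 13.60). Gpc5 (3.63 against 3.70, with a WT SD of 0.21) and Tnnt1 (6.15 against 6.83) averaged lower. Of these 5, Tnnt1 was called lower in p27-/- against WT (-0.69, adjusted p = 0.0256) and was higher by 0.88 between the mutants without passing the test (adjusted p = 0.101). The part of corticotrophs in the Crhr1 difference was not tested beyond these values. WT replicate 2 and p27-/- replicate 1 had the highest anterior lobe marker levels of their groups, 9.83 and 8.86. These were also the samples with the lowest Drd2 and the highest Nr3c1 value of their groups, and WT replicate 2 had the highest Avpr1b and the lowest Crhr1 value of the WT mice. With both samples left out, Crhr1 was still called in p27-/- against WT, and also with the anterior lobe marker level as a covariate. The anterior lobe markers hold no corticotroph gene, so neither setting measures corticotrophs themselves. Between the mutants Crhr1 was not called in either setting (adjusted p = 0.158 and 0.0565). Its differences of 0.67 and 0.65 were close to the 0.67 of all samples. Stem cell markers, 6 of 6 measured, had a mean log2 value between 7.93 and 8.04 in WT, between 7.52 and 7.81 in p27-/- and between 7.81 and 7.89 in p27-/-;Sox2+/- samples. The log2 of their summed linear level ranged from 12.11 to 12.21, from 11.23 to 11.83 and from 11.62 to 11.87 in the same order. Fibroblast and mural markers, 7 of 7, ranged from 8.15 to 8.59, from 7.56 to 8.26 and from 7.64 to 8.28, and posterior lobe markers, 6 of 6, from 6.18 to 7.80, from 6.51 to 6.71 and from 6.08 to 7.60. In p27-/- against WT the called markers of other cells were all lower, where 4.62% of all tested genes were called lower. From 9 anterior lobe markers it was Fshb (-2.04), from 6 of stem cells Cyp2f2 (-0.69) and from 6 of endothelium Kdr (-0.83). From 7 of fibroblasts and mural cells they were Lum (-0.75) and Pdgfra (-0.75). Fshb (-2.27) and Kdr (-0.67) were also called lower in p27-/-;Sox2+/- against WT, where 1.88% of all tested genes were. Fshb values overlapped between WT (7.15 to 9.64) and p27-/- samples (6.37 to 7.26). The part of the stem cell, endothelial and fibroblast markers in the receptor differences was not tested.

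**Figure D4:**
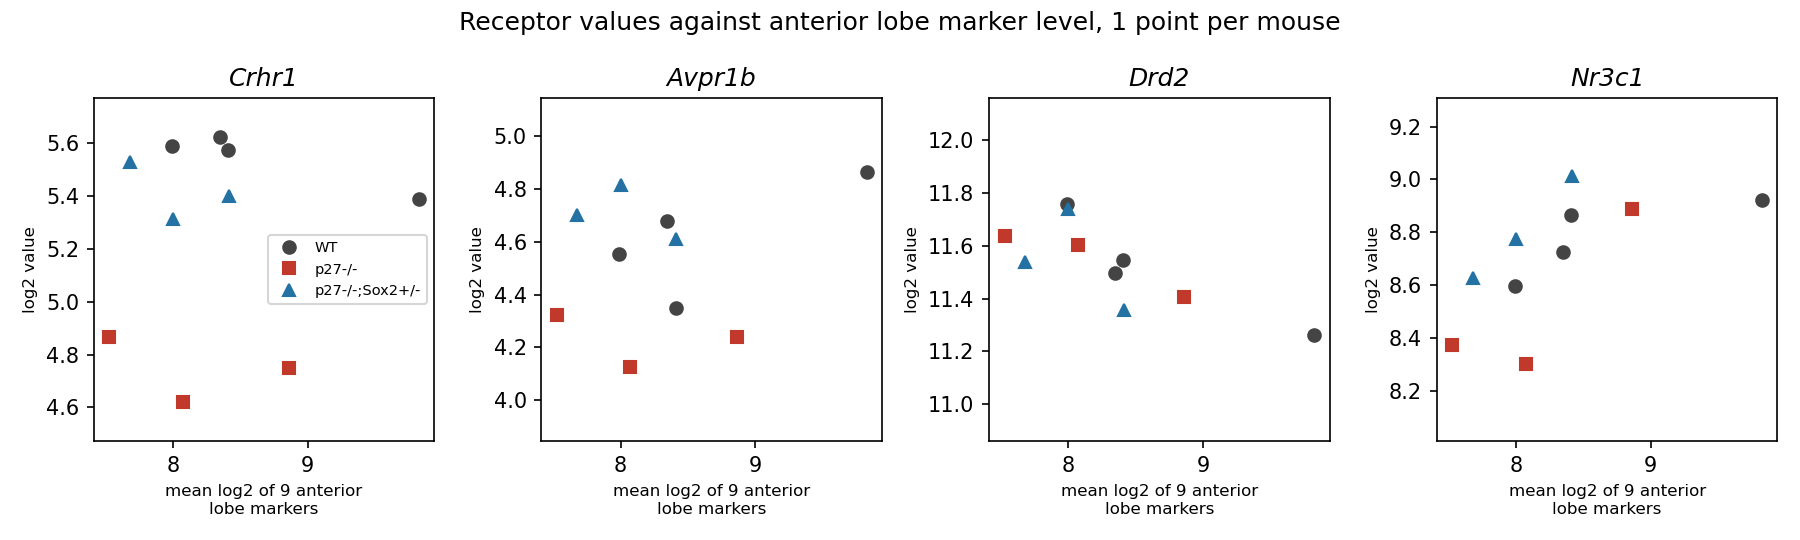
Log2 value of Crhr1, Avpr1b, Drd2 and Nr3c1 (vertical axis) against the mean log2 value of 9 anterior lobe hormone cell markers (horizontal axis), with 1 point per mouse and the genotype by colour and shape. The p27-/- points of Crhr1 lie under all other points, at marker levels from 7.52 to 8.86. The WT mouse with the marker level of 9.83 has the lowest Drd2 value, 11.26.

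As a description of likeness over the 10 mice, the genes with the most similar pattern to each tested receptor were listed by Pearson's r, which includes differences between genotypes and the share of tissues in the dissected samples. For Crhr1 they were Nhsl2 (0.96), Lsamp (0.95) and Cntnap2 (0.94), and after subtraction of the genotype means the r values were 0.70, 0.50 and 0.51. For Avpr1b they were Fmo5 (0.94), Snhg11 (0.91) and Fam129a (0.89), for Drd2 they included Kiss1r (0.92) and Gse1 (0.91), and for Nr3c1 Mal2 (0.96), Cpne3 (0.93) and Zmat1 (0.92). Crhr1 and Avpr1b had an r of 0.71 over all mice and of -0.25 after subtraction of the genotype means, so the likeness over all mice was not seen among mice of the same genotype. Drd2 and Nr3c1 ran opposite to each other, with an r of -0.62 over all mice and of -0.71 within genotypes.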

How the data were processed

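Bulk RNA-seq of dissected IL from 4 WT, 3 p27-/- and 3 p27-/-;Sox2+/- mice was used, grouped by the genotype in the labels. The authors amplified the RNA, aligned the reads with STAR 2.5.2a, counted them per gene without strand with RSEM 1.3.30 on the Ensembl annotation of GRCm38 and normalized them with DESeq2 1.18.1, and they deposited log2 values, whose transformation is not named in the sources used here. Low genes are compressed in them. Because these are not counts, limma 3.58.1 (R 4.3.3) was run on the log2 values with the 3 genotypes fitted jointly, the trend option of eBayes and p-values adjusted by Benjamini-Hochberg across 17268 genes. Exact permutation tests, two-sided, used scipy 1.17.1 (Python 3.11.15, numpy 2.4.6, pandas 2.3.3, matplotlib 3.10.9). The fit was tested on simulated data.

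The receptors and lists were chosen with earlier results of these data known. Named genes are the 7 receptors, all called genes of the receptor and signalling lists (up to 4 per list and comparison), called markers of cell types, and Th and Fkbp5, which were chosen after their values were seen, and the 3 genes most like each tested receptor, of which 1 is not reported here. Symbols came from a gene name table, and positions and upstream sequences from RefSeq for GRCm38.p6. Exon lengths are those of an older GENCODE annotation. The limma p-values set a difference of genotype means against the spread between mice of the same genotype. That spread was pooled over the genotypes and drawn toward the spread of genes of similar level. Alternatives were array weights, no filter, quantile normalization, a minimum of 50, the replicate block, no trend, only the groups compared, median centring, Xist, anterior lobe or posterior lobe markers as a covariate, each sample left out and, chosen after seeing the data, both samples highest in anterior lobe markers left out.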

Additional observations from a re-analysis of the deposited data

Results flagged for a closer look

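In 29 sets of 4 WT values, a sample far from the others was sought by Dixon's ratio of the gap to the range. The sets were receptor and signalling genes named above and the mean log2 levels of the marker lists. Such a sample was found in 2 sets, both of genes, where 1.45 would be found by chance at 1 in 20. Sstr5 had a value of 0.10 in WT replicate 4 against -0.02 in the other WT samples, a ratio of 0.983, at a level at which the table is compressed. Prkar1a, a regulatory subunit gene of protein kinase A, had a value of 13.11 in WT replicate 2 against 12.86 to 12.89, a ratio of 0.875.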

How the results depend on the processing

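The lower Crhr1 value of p27-/- against WT was called in every setting that tested it, and 0 receptors were called in p27-/-;Sox2+/- against WT in all settings. With a minimum of 50, Crhr1 and Avpr1b were not tested, which left 0 receptors called in p27-/- against WT and between the mutants. Array weights called 2, Crhr1 and Avpr1b, in both. Between the mutants 0 were called with no filter, no trend, median centring, quantile normalization, the replicate block, a covariate (Xist, anterior or posterior lobe markers) or both samples highest in anterior lobe markers left out. Leaving out 1 sample gave 1 to 2 and 0 to 1 receptors called.

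Drd2 changed sign, always near 0: in p27-/- against WT to -0.0336 with quantile normalization and -0.0763 with the anterior lobe covariate, in p27-/-;Sox2+/- against WT to -0.0025, -0.108 and, without both anterior lobe-rich samples, -0.057, and between the mutants to 0.0311 with quantile normalization. With a sample left out the 3 differences ran from -0.0522 to 0.114, -0.0692 to 0.123 and -0.102 to 0.0895. Nr3c1 in p27-/-;Sox2+/- against WT was -0.0759 with array weights and -0.0773 to 0.117 with a sample left out. The cause was not tested.

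All genes called in p27-/- against WT were 1343, and 831 with no filter, 807 with only the groups compared, 595 with the block, 501 with the posterior lobe covariate, 772 without both anterior lobe-rich samples and 403 to 1709 with a sample left out. In p27-/-;Sox2+/- against WT they were 468, and 260 with only the groups compared, 1240 with array weights, 209 with the block, 195 with the posterior lobe covariate and 80 to 658 with a sample left out. Between the mutants they were 25, and 6 with no filter, 45 with only the groups compared, 8 with no trend, 283 with array weights, 15 with quantile normalization, 2 with the block, 7 without both anterior lobe-rich samples and 0 to 41 with a sample left out.

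No pairing of samples by replicate number was seen. Deviations of same-numbered samples correlated between -0.24 and 0.18 over 9 pairs, and those of differently numbered samples between -0.19 and 0.26 over 24 pairs. With the number as a block, Crhr1 in p27-/- against WT was -0.77 (adjusted p = 0.0137) and between the mutants had an adjusted p of 0.184. No depth is known, so low receptors cannot be separated from absent ones.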
